A study of Mus musculus with 25 samples.

Results

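The ligands with which macrophages stimulate or restrain T cells were followed over 9 conditions. The genes were Cd80 and Cd86 (the B7 ligands of CD28 and CTLA-4), Icosl (ligand of ICOS), Cd40 (the receptor of CD40 ligand), Cd83 (a surface glycoprotein of activated antigen-presenting cells), Cd274 and Pdcd1lg2 (the PD-1 ligands PD-L1 and PD-L2) and Havcr2 (the inhibitory receptor TIM-3). The set was fixed by these gene symbols, and all 8 were found among the 24411 gene symbols of the count files. RNA was measured in 25 libraries. In 21 of them, C57BL/6 bone marrow cells had been grown in 25 ng/ml M-CSF over 4 days into bone marrow-derived macrophages (BMDMs). Of these, 3 libraries each were control cells, cells given IFN-γ (100 U/ml) with LPS (100 ng/ml) for 1, 4, 12 or 24 h (IFN-γ-primed LPS), cells given IL-4 (10 ng/ml) for 12 h and cells given IL-13 (10 ng/ml) for 12 h. The other 4 were of RAW264.7, a mouse macrophage cell line, as 2 control libraries and 2 libraries with LPS (100 ng/ml) for 4 h. M-CSF was shared by every BMDM group, no BMDM group used here had IFN-γ or LPS alone, the labels give no separate priming time, and 1 control group labelled 4 h served every time point, so time in culture and treatment cannot be told apart at 1, 12 and 24 h. The study's methods call the replicates biological and their RNA independent, but neither they nor the labels name separate mice or cultures, and p-values then measure the spread between these libraries only.

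A T cell needs a second signal besides its antigen receptor, and antigen-presenting cells give it through B7 proteins that bind CD28. The same B7 proteins bind the inhibitory receptor CTLA-4, and PD-L1 and PD-L2 restrain T cells through PD-1. CD40 on the macrophage receives the helper T cell's CD40 ligand and signals through TRAF proteins and NF-κB. IFN-γ acts through JAK kinases and IRF1, LPS through TLR4 and NF-κB, and IL-4 and IL-13 through STAT6.

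Levels are given as CPM, sense-strand counts of a gene scaled to the library's total over genes, leaving out the ribosomal precursor Rn45s. Each library held 2378639 to 3357300 counts, of which Rn45s took 20.1% to 39.8%, and 1502618 to 2532496 remained. In the tests a gene was called when its adjusted p (edgeR's quasi-likelihood test, Benjamini-Hochberg over all genes tested) was at most 0.01 and its log2 fold change reached a cutoff. This was 0.7 where IL-4 or IL-13 was compared with control or with each other, 2 in comparisons with RAW264.7 and 1.5 in all others. The study set these cutoffs for treated against control cells, and they were carried over to the other comparisons. Fold changes come from the fit, which scales libraries by TMM. The SE printed with a log2 fold change is its absolute value divided by the square root of the test's F. It can be too small where a group has few counts. In the fit of all 25 libraries, this scaling moved log2 values against control BMDMs beyond plain CPM. The shifts were 0.22, 0.58, 0.35 and 0.23 at 1, 4, 12 and 24 h, in that order. The time course was scaled in a fit of its own, where the shifts can differ. The macrophage genes Adgre1, Csf1r, Cd68 and Lyz2 had counts in all 25 libraries, whereas Mertk was at 0 in all 4 RAW264.7 libraries. The BMDM libraries fell into 2 sets by a property that no label names. Antisense reads made up 0.00603% to 0.0214% of the Rn45s reads in the 9 libraries of IL-4, IL-13 and 24 h, and 0.0386% to 0.122% in the 12 of control, 1, 4 and 12 h. In every comparison between the sets, this difference and the treatment cannot be told apart. In bulk RNA, fewer cells of a type and less RNA per cell cannot be told apart.

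**Figure D1:**
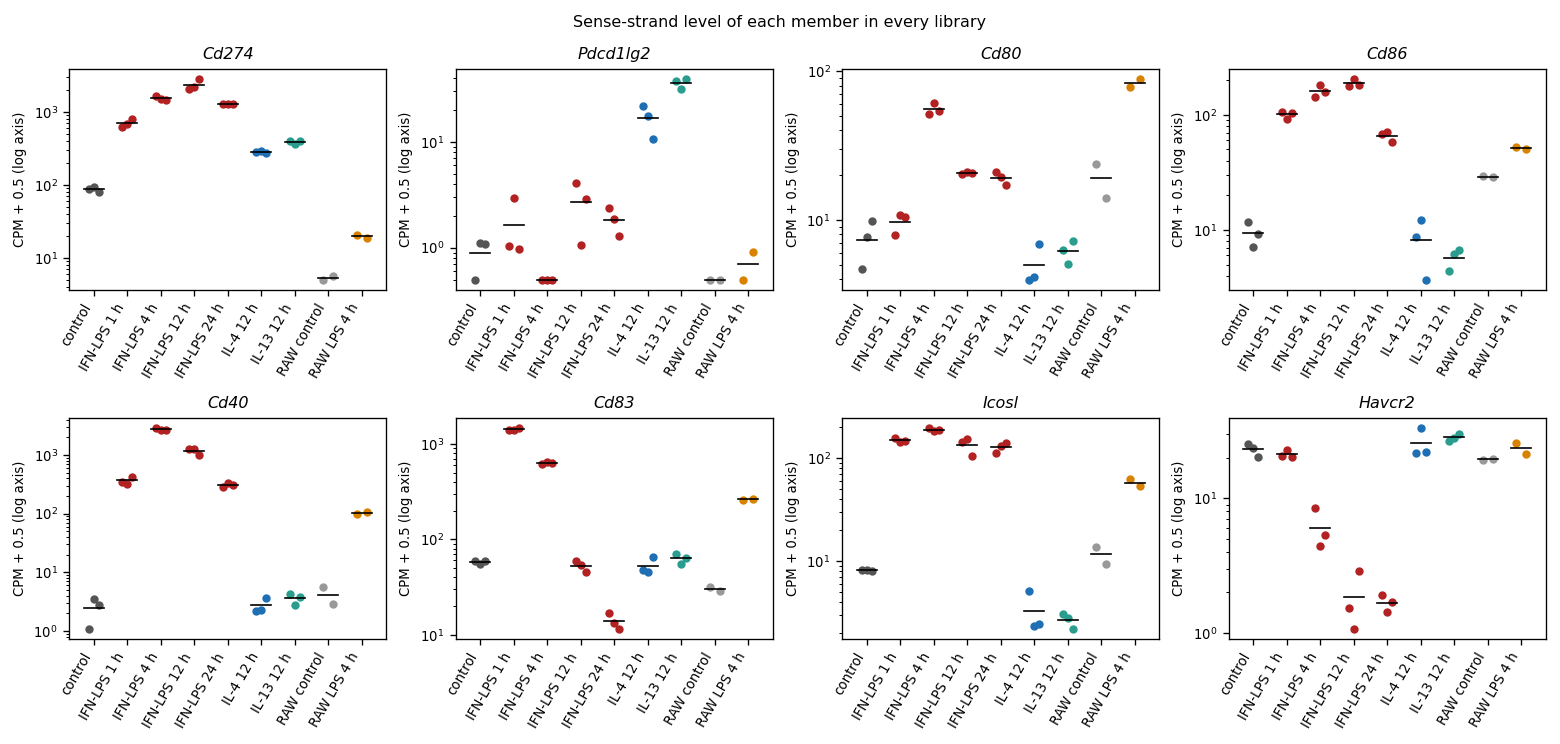
Sense-strand level of each gene (CPM + 0.5, log axis) in each of the 25 libraries, by condition. Points are libraries and bars are group means. Cd274 was lowest in the RAW264.7 libraries, Pdcd1lg2 was highest with IL-13, and Havcr2 was lowest at 12 and 24 h of IFN-γ-primed LPS.

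Cd274 and Pdcd1lg2 are neighbours on chromosome 19. In GENCODE M21 (GRCm38, the mm10 build of the files) Cd274 (ENSMUSG00000016496.7) lay at chr19:29367455-29388095 and Pdcd1lg2 (ENSMUSG00000016498.10) at chr19:29410919-29471161, both on the plus strand, with 22824 bases between them. Cd86 (chr16:36603869-36666081, minus strand) and Cd80 (chr16:38455561-38496335, plus strand) were 1789480 bases apart. Cd40 lay at chr2:165055627-165072948, Cd83 at chr13:43784775-43803132, Icosl at chr10:78069302-78083913 and Havcr2 at chr11:46454935-46481255, all on the plus strand. An antisense gene overlapped Cd274 (AC119228.1) and another Pdcd1lg2 (A930007I19Rik). Sense counts were separated from antisense ones by strand.

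These neighbouring genes shared some of the stimuli that raised them. Cd274 was called higher with IFN-γ-primed LPS, IL-4 and IL-13. Pdcd1lg2 was called higher with IL-4 and IL-13 and was too low to be tested in the time course. Their promoters are shown as a description (RefSeq, GRCm38.p6, plus strand, 250 bases before to 50 bases after the start), and the part of any motif in these levels was not tested. Capitals mark matches to a searched motif. The Cd274 promoter is chr19:29367188-29367487 and the Pdcd1lg2 promoter is chr19:29410669-29410968.
Cd274: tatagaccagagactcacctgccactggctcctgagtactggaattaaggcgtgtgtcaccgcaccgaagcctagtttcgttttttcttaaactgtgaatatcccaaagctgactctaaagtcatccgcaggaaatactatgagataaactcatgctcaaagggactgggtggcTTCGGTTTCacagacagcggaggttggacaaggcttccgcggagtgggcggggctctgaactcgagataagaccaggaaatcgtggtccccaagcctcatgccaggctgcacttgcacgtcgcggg
Pdcd1lg2: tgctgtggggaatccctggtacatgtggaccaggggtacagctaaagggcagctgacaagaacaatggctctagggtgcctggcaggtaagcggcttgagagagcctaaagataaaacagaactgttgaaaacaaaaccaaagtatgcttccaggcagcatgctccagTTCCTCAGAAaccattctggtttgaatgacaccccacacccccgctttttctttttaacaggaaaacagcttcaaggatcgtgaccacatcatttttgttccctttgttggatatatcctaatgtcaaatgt
The capitals in Pdcd1lg2 are TTCCTCAGAA, a match to TTCNNNNGAA (a spacing that STAT6 binds), beginning 82 bases before the start. The capitals in Cd274 are TTCGGTTTC, a match on the other strand to GAAANNGAA (a pair of IRF half-sites), beginning 76 bases before the start. Over all 32851 promoters of this length, 6.95% held the first motif and 8.56% the second. Promoter sequences were at hand for 5 of the 8 genes (Cd274, Pdcd1lg2, Cd80, Icosl and Havcr2) and were searched on both strands, and each of these 2 motifs was found in 1 of the 5. None of the 5 held TTCNNNGAA (GAS, in 8.30% of all promoters), GAAANNGAAA (ISRE, in 3.44%, and a longer form of the IRF pair) or GGGNNTTTCC (an NF-κB motif, in 1.63%). These are matches of letters, and no match says only that the letters are not in this window.

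The first question was how these genes moved over time with IFN-γ-primed LPS. Of the 7 members tested, 6 were called higher at some time, and their times of highest level differed. By CPM, Cd83 was highest at 1 h, Cd40, Cd80 and Icosl at 4 h, Cd86 at 4 and 12 h, and Cd274 at 12 h, while Havcr2 fell. This is an order of levels, and not every step next to a highest time was called. For Cd274 and Icosl neither such step was called. At 1 h, 5 members were called higher (Cd274, Cd86, Cd40, Cd83 and Icosl) and 0 lower, against 5.04% of the 9568 genes tested called higher and 2.08% lower. At 4 h, 6 were higher and 1 lower (all genes 11.4% and 11.4%), at 12 h 5 higher and 1 lower (all genes 8.87% and 8.42%) and at 24 h 5 higher and 2 lower (all genes 7.93% and 6.93%). Pdcd1lg2 did not pass the filter on low counts here. Cd40 and Cd80 passed it only through the stimulated groups and Havcr2 only through control and 1 h, so these members' counts are no support in themselves. The 4 comparisons share 1 control group.

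**Figure D2:**
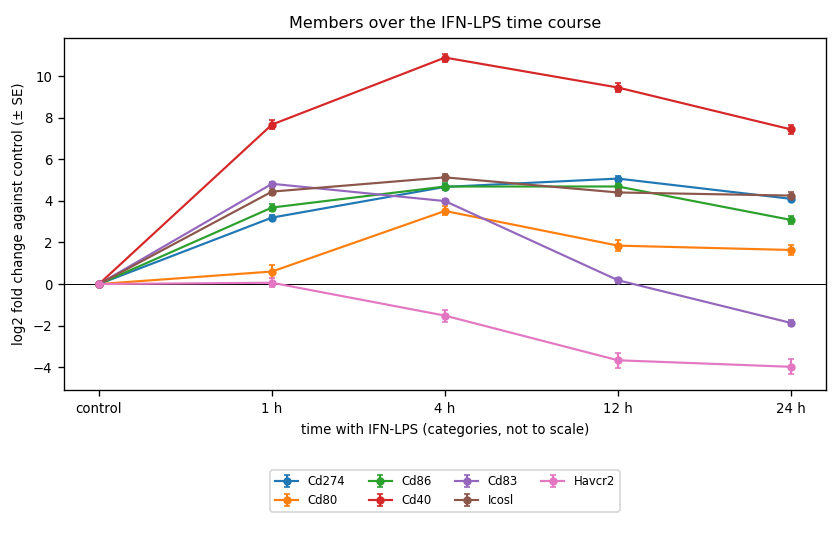
log2 fold change against control BMDMs for the 7 members tested in the IFN-γ-primed LPS time course (3 libraries a group, times as categories). Error bars are the SE computed from the test's F, which can be too small where control counts are few. Cd40 had the largest change at each time, Cd83 crossed below 0 between 12 and 24 h, and Havcr2 ended at -3.98.

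Of the B7 ligands of CD28, Cd86 was called higher at 1 h and Cd80 from 4 h on. Cd86 was at 11.3, 6.55 and 8.73 CPM in the 3 control libraries and at 106, 91.2 and 104 at 1 h. All libraries at 1 h lay above all controls. It reached 142, 182 and 156 at 4 h and 176, 205 and 180.5 at 12 h, and was at 67.9, 70.3 and 57.3 at 24 h. The log2 fold change was 3.68 ± 0.186 (SE), adjusted p = 3.41e-22 at 1 h, 4.69 ± 0.172 (SE), adjusted p = 3.09e-28 at 12 h and 3.09 ± 0.195 (SE), adjusted p = 7.07e-19 at 24 h. Cd80 was at 4.16, 7.15 and 9.31 CPM in control and 7.44, 10.3 and 9.99 at 1 h, ranges that overlapped (0.60 ± 0.307 (SE), adjusted p = 0.124). At 4 h it was at 51.2, 60.7 and 53.6, at 12 h at 19.9, 20.6 and 20.2 and at 24 h at 20.5, 18.9 and 16.6, and the 4 h libraries lay above all other BMDM libraries. Its log2 fold change was 3.52 ± 0.217 (SE), adjusted p = 2.33e-19 at 4 h, 1.85 ± 0.259 (SE), adjusted p = 3.04e-08 at 12 h and 1.64 ± 0.257 (SE), adjusted p = 3.97e-07 at 24 h. At 24 h the call was lost without control replicate 1, where the log2 fold change was 1.38. Tested against the cutoff itself, Cd80 was not called at 12 h (adjusted p = 0.233) or 24 h (adjusted p = 0.879).

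Counted within each library, which needs no scaling between libraries, Cd80 had 7.04 to 11.3 counts per 100 Cd86 counts at 1 h. At 4 h the ratio lay between 33.3 and 36.2. The 12 h libraries gave 10.0 to 11.3 and those of 24 h gave 26.8 to 30.1. The 4 h and 24 h ranges did not overlap those of 1 h and 12 h. In control cells the ratio ran from 36.8 to 109 on few counts. These ratios were added after the values were seen and were not tested.

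**Figure D3:**
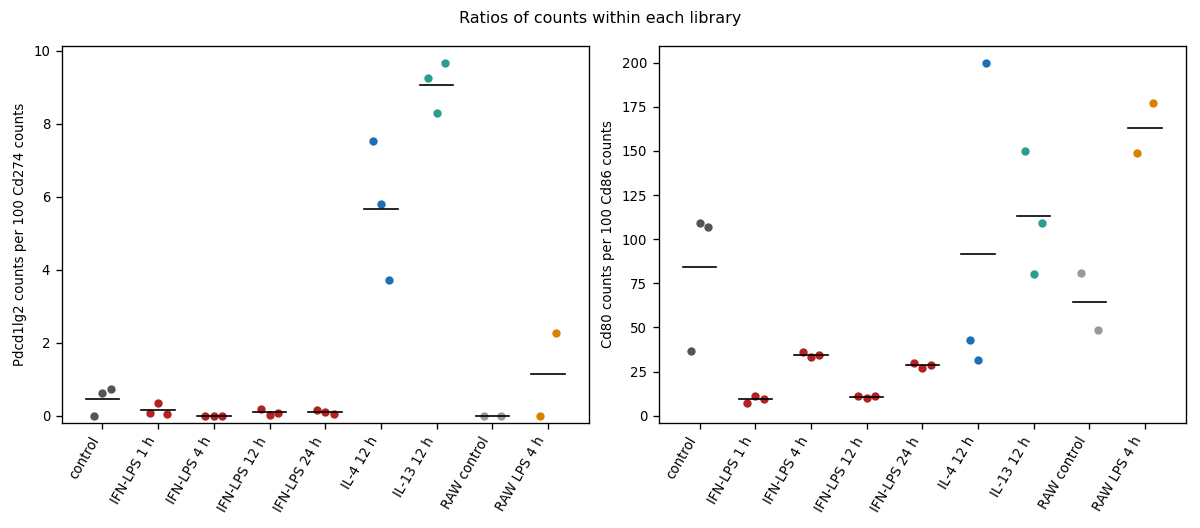
Pdcd1lg2 counts per 100 Cd274 counts (left) and Cd80 counts per 100 Cd86 counts (right) within each of the 25 libraries, linear axes, with bars at group means. Pdcd1lg2 reached 3.71 to 9.66 per 100 Cd274 counts with IL-4 or IL-13, and in RAW264.7 with LPS Cd80 outnumbered Cd86 in both libraries.

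Cd40 had the largest fitted change of the 7 at each time. It had 1, 5 and 4 counts in the control libraries, or 0.595, 2.98 and 2.33 CPM. At 1 h it stood at 349, 322 and 428 CPM, at 4 h at 2868, 2648 and 2620, at 12 h at 1239, 1260 and 994 and at 24 h at 281, 327 and 305. Every stimulated library was above every control library, and the 1 h and 24 h ranges overlapped. The ratio of summed levels to control was 188 at 1 h (95% interval 102 to 393) and 1374 at 4 h (747 to 2865), an exact interval that covers counting error only. In the fit the log2 fold change was 10.90 ± 0.19 (SE), adjusted p = 9.17e-41 at 4 h and 7.44 ± 0.213 (SE), adjusted p = 4.63e-32 at 24 h. Leaving out 1 library moved the 4 h value between 10.48 and 11.31, beyond its SE.

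Cd83 was highest at the earliest time and ended below its control level. Control libraries held 58.3, 54.2 and 58.2 CPM, and 1 h libraries 1382, 1405 and 1463. At 4 h the libraries held 617, 642 and 629.5, at 12 h 58.2, 53.7 and 45.2 and at 24 h 16.3, 12.9 and 11.1. The log2 fold change was 4.82 ± 0.108 (SE), adjusted p = 1.14e-36 at 1 h and 3.99 ± 0.108 (SE), adjusted p = 8.98e-34 at 4 h. At 12 h it was 0.18 ± 0.128 (SE), adjusted p = 0.226, and the libraries overlapped the controls, while all 24 h libraries lay below all controls (-1.87 ± 0.158 (SE), adjusted p = 1.94e-14). Tested against the cutoff itself, the 24 h fall was not called (adjusted p = 0.0332).

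Icosl was raised from 1 h through 24 h. It stood at 7.73, 7.75 and 7.57 CPM in control (13 counts in each library) and at 155, 145 and 146 at 1 h. The values were 196, 185 and 187 in the 4 h libraries, 142, 155 and 104 in those of 12 h and 111, 129.7 and 139 in those of 24 h. The 1, 12 and 24 h ranges overlapped. Its log2 fold change was 5.13 ± 0.172 (SE), adjusted p = 6.73e-30 at 4 h and 4.26 ± 0.179 (SE), adjusted p = 8.95e-26 at 24 h.

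Of the PD-1 ligands, Cd274 rose and Pdcd1lg2 stayed near 0. Cd274 was at 89.2, 93.5 and 79.7 CPM in control and at 619, 683 and 811 after 1 h. It stood at 1684, 1509 and 1471 after 4 h, at 2065, 2211 and 2851 after 12 h and at 1282, 1272 and 1306 after 24 h. No 2 neighbouring groups in its order of levels overlapped. The log2 fold change was 3.20 ± 0.127 (SE), adjusted p = 4.44e-22 at 1 h, 5.07 ± 0.131 (SE), adjusted p = 2.06e-28 at 12 h and 4.10 ± 0.128 (SE), adjusted p = 9.64e-26 at 24 h. Pdcd1lg2 had 0, 1 and 1 counts in control and 1, 4 and 1 after 1 h. The later libraries had 0, 0 and 0 (4 h), 7, 1 and 5 (12 h) and 4, 3 and 2 (24 h). It did not pass the filter and was not tested. The 0 counts at 4 h allow up to 0.605 CPM (3 counts over the group).

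Havcr2 fell. Control libraries held 25.0, 23.2 and 19.8 CPM and 1 h libraries 20.2, 22.4 and 20.0, which overlapped (0.06 ± 0.212 (SE), adjusted p = 0.854). At 4 h the level was 7.99, 3.90 and 4.82, at 12 h 1.02, 0.571 and 2.41 and at 24 h 1.40, 0.92 and 1.19, all below every control and 1 h library. The log2 fold change was -1.52 ± 0.291 (SE), adjusted p = 1.45e-05 at 4 h, -3.67 ± 0.373 (SE), adjusted p = 6.07e-12 at 12 h and -3.98 ± 0.364 (SE), adjusted p = 2.48e-13 at 24 h. The size of the later falls rests on few counts, 2, 1 and 5 at 12 h and 3, 2 and 3 at 24 h. Without 1 library the 12 h value ran from -4.40 to -3.33. The 4 h value sat at the cutoff: it was -1.49 with RLE size factors, -1.50 with DESeq2, -1.50 with Rn45s kept and -1.30 to -1.49 in the 4 fits without control replicate 1, control replicate 2, 4 h replicate 2 or 4 h replicate 3, and was not called in these.

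Step by step, 2 members were called higher from 1 to 4 h (Cd80 and Cd40) and 1 lower (Havcr2), against 7.07% and 6.96% of all genes. From 4 to 12 h, 0 were higher and 3 lower (Cd80, Cd83 and Havcr2), against 5.2% and 4.45%, and from 12 to 24 h 0 were higher and 3 lower (Cd86, Cd40 and Cd83), against 0.418% and 0.867%. Cd83 fell in both later steps, by 3.81 on the log2 scale from 4 to 12 h (adjusted p = 1.36e-31) and by 2.05 from 12 to 24 h (adjusted p = 1.44e-14). Cd40 rose by 3.22 from 1 to 4 h (adjusted p = 1.37e-29), and its log2 change from 4 to 12 h, -1.44 ± 0.0959 (SE), adjusted p = 2.56e-17, missed the cutoff of size. Icosl was called in none of the 3 steps (log2 changes of 0.69, -0.73 and -0.15). Cd86 was not called between 4 and 12 h (0.00 ± 0.111 (SE), adjusted p = 0.994). The fall of Havcr2 from 1 to 4 h (-1.58 ± 0.29 (SE), adjusted p = 9.67e-06) was not called without 4 h replicate 2 or 4 h replicate 3. Cd274 from 1 to 4 h (1.48 ± 0.107 (SE), adjusted p = 2.12e-14) lay just under the cutoff and was called without 1 h replicate 3 or 4 h replicate 3. Its later changes were under the cutoff of size. They were 0.40 ± 0.104 (SE), adjusted p = 0.00169 from 4 to 12 h and -0.97 ± 0.104 (SE), adjusted p = 3.3e-09 from 12 to 24 h. The former ran from 0.224 to 0.502 without 1 library.

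Dendritic cell markers moved with these genes in part. Ccr7, the homing receptor of mature dendritic cells, was at 0 in control and 1 h libraries, at 4.80 ± 1.67 CPM (SD, n = 3) at 4 h and at 17.8 ± 1.83 at 24 h. Clec9a was at 0.393 ± 0.34 CPM in control and 47.7 ± 2.25 at 1 h. Itgax went from 168 ± 21.3 to 37.2 ± 3.60 CPM at 24 h. Of the other 4 of 7 markers, Flt3 and Cd209a held 2 and 3 counts over all 25 libraries, and Xcr1 and Zbtb46 reached at most 1.93 and 5.51 CPM. The 7 markers summed to between 144 and 184 CPM in control and between 49.7 and 59.6 CPM in the 24 h libraries. Of the T cell markers, Cd3e, Cd3d, Cd3g and Cd40lg were at 0 in all 25 libraries. Others were counted: Cd28 held 2853 counts over all 25 libraries, Lck 76 and Icos 33. Cd28 was called lower at all 4 times and is described under the last heading. The 5 B cell markers summed to at most 1.92 CPM in any library, and 5 fibroblast markers to 47.3 to 117 CPM in BMDMs and 0 in RAW264.7. The 7 neutrophil and precursor markers summed to 12.8 to 40.9 CPM in BMDMs. Of the 3 tested, Ngp (-5.94 in log2) and S100a9 (-2.01) were called lower at 24 h and 1 was not called. The sum of the 7 was not lower, at 14.3 to 24.5 CPM in control and 20.2 to 22.8 CPM at 24 h. Of the 8 macrophage markers, Fcgr1 and Cd14 were called higher at all 4 times and lower with IL-4 and IL-13, and at 24 h Adgre1 was called higher (2.14) and Mertk lower (-1.60). In control RAW264.7 cells Adgre1, Cd68 and Mertk were called lower and Cd14 higher than in control BMDMs. The part of these cell type markers in the results was not tested.

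The second question was what IL-4 and IL-13 did to the same genes. Both raised the 2 PD-1 ligands, Pdcd1lg2 from near 0 counts and Cd274 from a level it already had in control cells. No ligand of CD28 or ICOS was called higher with either. With IL-4, 2 members were called higher and 0 lower, against 2.22% and 1.64% of the 9252 genes tested. With IL-13, 2 were higher and 1 lower, against 2.98% and 2.38%. Of the 8, 7 passed the filter. Pdcd1lg2 passed only through the treated groups and Icosl, the 1 called lower, only through control, so these counts are no support in themselves. Cd86 had all libraries of a group above the filter's level only in control. Cd40, at 0.595, 2.98 and 2.33 CPM in control, 1.74, 1.83 and 3.20 with IL-4 and 3.85, 2.28 and 3.38 with IL-13, was not tested.

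Pdcd1lg2 had 37, 28 and 16 counts with IL-4 and 58, 54 and 69 with IL-13, against 0, 1 and 1 in control. In CPM the IL-4 libraries were at 21.4, 17.1 and 10.2 and the IL-13 libraries at 37.3, 30.8 and 38.9, and no treated library came near a control. The ratio of summed levels to control was 41.7 with IL-4 (95% interval 11.2 to 350) and 90.3 with IL-13 (24.6 to 752), exact intervals on 2 control counts that cover counting error only. The log2 fold change of the fit was 5.13 ± 0.545 (SE), adjusted p = 1.06e-10 with IL-4 and 6.21 ± 0.448 (SE), adjusted p = 1.22e-16 with IL-13. Cd274 was at 285, 294 and 276 CPM with IL-4 and 402, 370.3 and 402 with IL-13, all above the controls. Its log2 fold change was 1.70 ± 0.101 (SE), adjusted p = 1.08e-19 and 2.12 ± 0.099 (SE), adjusted p = 3.52e-24. Per 100 Cd274 counts, the IL-4 libraries had 3.71 to 7.52 Pdcd1lg2 counts and the IL-13 libraries 8.31 to 9.66, against 0 to 0.73 in control and 0 to 0.354 in all libraries of the time course.

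Between the 2 cytokines, 1 member was called higher with IL-13 (Pdcd1lg2) and 0 lower, against 0.054% and 0.0108% of all genes. The Pdcd1lg2 difference was 1.08 ± 0.211 (SE), adjusted p = 0.00555, and the ratio of summed levels 2.16 (1.66 to 2.85, counting error only, not the spread of 16 to 37 counts between IL-4 libraries). The ranges did not overlap, but the call was lost with DESeq2 (adjusted p = 0.155), and without IL-4 replicate 2 (0.07), IL-4 replicate 3 (0.264) or IL-13 replicate 3 (0.045). Cd274 differed by 0.42 ± 0.0873 (SE), adjusted p = 0.0104, under the cutoff of size and just over that of p.

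Icosl was at 4.63, 1.83 and 1.92 CPM with IL-4 and 2.57, 2.28 and 1.69 with IL-13, below all controls but on 3 to 8 counts a library. Its log2 fold change was -1.42 ± 0.449 (SE), adjusted p = 0.0262 with IL-4, which was not called, and -1.83 ± 0.472 (SE), adjusted p = 0.00367 with IL-13. The IL-13 call was lost with DESeq2 (adjusted p = 0.0367) and without any 1 of the 3 controls or IL-13 replicate 2 or 3 (adjusted p = 0.0136 to 0.0231). Cd86 was at 8.11, 11.6 and 3.20 CPM with IL-4 and 3.85, 5.70 and 6.19 with IL-13, and Cd80 at 3.48, 3.66 and 6.40 and 5.78, 4.56 and 6.76. Cd83 (-0.13 and 0.10 in log2) and Havcr2 (0.16 and 0.27) were not called with either cytokine. The dendritic cell marker Itgax moved alongside, from 168 ± 21.3 CPM (SD, n = 3) in control to 323 ± 57.2 with IL-4 (not called) and 412 ± 102 with IL-13 (1.25 ± 0.2 (SE), adjusted p = 0.00222). The 7 dendritic markers summed to between 268 and 382 CPM (IL-4) and between 301 and 495 CPM (IL-13), with Flt3 and Cd209a near 0 as above, and their part was not tested.

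**Figure D4:**
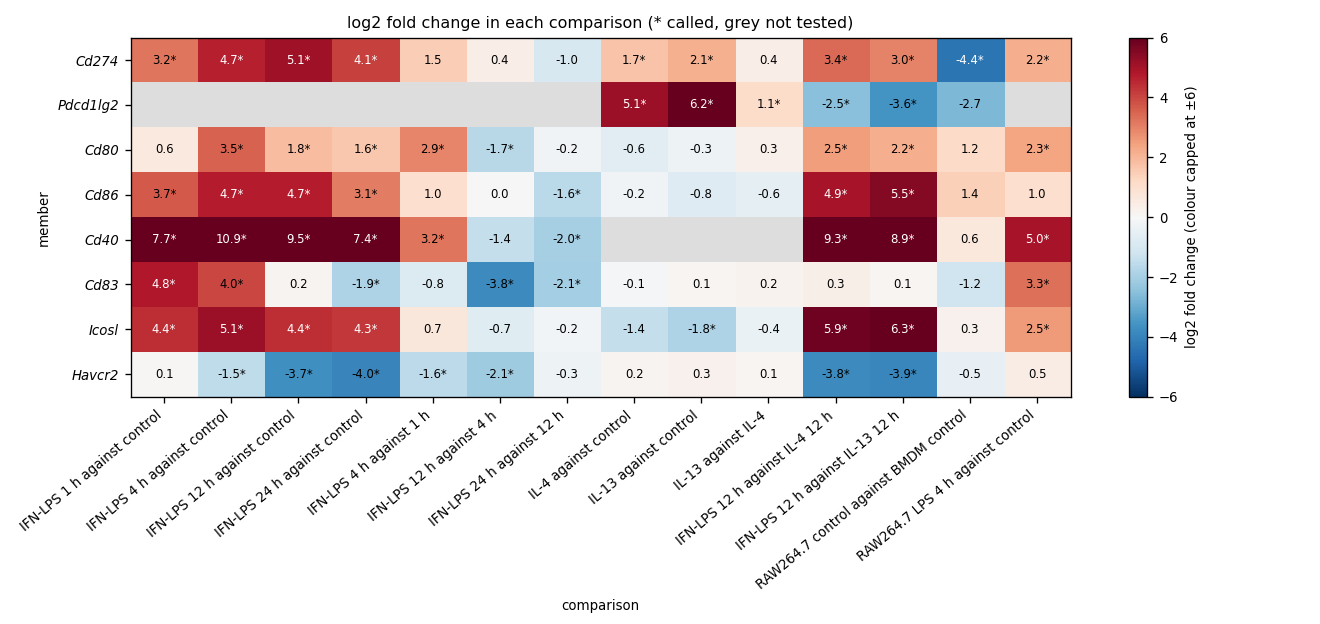
log2 fold change of each member in the 14 comparisons, with an asterisk where it was called and grey where it was not tested. Pdcd1lg2 was tested in 6 of the 14, was higher with IL-4 and IL-13 and lower in IFN-γ-primed LPS than in either.

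The third question was how the 2 kinds of activation compared at 12 h, in a fit of all 25 libraries. With IFN-γ-primed LPS, 5 members were higher than with IL-4 and 2 lower, against 8.58% and 7.45% of the 10612 genes tested. The same 5 (Cd274, Cd80, Cd86, Cd40 and Icosl) were higher and the same 2 (Pdcd1lg2 and Havcr2) lower than with IL-13, against 8.59% and 7.44%. Cd40 and Cd80 lay wholly above the filter's level of 5.63 CPM only in groups with LPS or of RAW264.7. Cd86 and Icosl did so in no IL-4 or IL-13 group, Pdcd1lg2 only with IL-4 and IL-13, and Havcr2 not at 12 h. Some libraries of Cd80 and Cd86 reached the level with IL-4 or IL-13, and some of Cd80 in control. These counts are no support in themselves. The 2 comparisons share the 12 h IFN-γ-primed LPS libraries. Cd274 differed from IL-4 by 3.41 ± 0.105 (SE), adjusted p = 3.28e-38 and from IL-13 by 2.98 ± 0.102 (SE), adjusted p = 1.13e-35. Pdcd1lg2 went the other way, -2.49 ± 0.402 (SE), adjusted p = 2.08e-07 against IL-4 and -3.58 ± 0.345 (SE), adjusted p = 1.38e-14 against IL-13. It was 7.32 times higher in summed level with IL-4 (95% interval 4.05 to 14.3) and 15.8 times higher with IL-13 (9.03 to 30.3) than the 13 counts of the 12 h libraries (7, 1 and 5), intervals that again cover counting error only. Icosl differed from IL-4 by 5.86 ± 0.22 (SE), adjusted p = 1.26e-36, Cd86 by 4.93 ± 0.182 (SE), adjusted p = 4.2e-37 and Cd80 by 2.51 ± 0.294 (SE), adjusted p = 1.56e-11. Cd40 differed by 9.32 (adjusted p = 3.56e-54) and Havcr2 by -3.80 (adjusted p = 7.62e-15), the latter on 8 counts over the 12 h IFN-γ-primed LPS libraries. Cd83 was not called against either (0.34 ± 0.136 (SE), adjusted p = 0.0291 for IL-4 and 0.11 ± 0.131 (SE), adjusted p = 0.503 for IL-13).

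Levels per kilobase of exon allow a rough comparison between genes. Exon lengths were those of GENCODE M21, whereas the annotation release of the counts is not given, so the counted exons can differ. By this measure Cd274 (24.2 ± 1.95 CPM per kb, SD, n = 3) and Cd83 (22.1 ± 0.901) led in control BMDMs and their ranges overlapped. At 1 h Cd83 led (551 ± 16.3), at 4 h Cd40 (796 ± 39.9), and at 12 h and 24 h Cd274 (656 ± 115 and 355 ± 4.82). With IL-4 and IL-13 Cd274 led (78.7 ± 2.48 and 108 ± 5.06), and Pdcd1lg2 was the third with IL-13 (18.2 ± 2.18). Cd40 was the seventh of 8 in control (0.578 ± 0.362) and had 89.4 ± 6.75 at 24 h.

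In RAW264.7 the starting levels and the answer to LPS were examined. Compared with control BMDMs, Cd274 was the only member called lower in control RAW264.7 cells and 0 were called higher, against 13.3% and 9.67% of all genes tested. Cd274 was at 4.59 and 5.15 CPM (-4.40 ± 0.239 (SE), adjusted p = 2.88e-25). Cd86 was at 28.9 and 28.1 CPM, above all BMDM controls, but its log2 difference of 1.43 was under the cutoff of 2. Cd83 was at 31.2 and 28.6 CPM (-1.18), and Pdcd1lg2 had 0 and 0 counts. The remaining members were not called: Cd80 (23.4 and 13.6 CPM, log2 difference 1.17), Cd40 (5.05 and 2.34 CPM, 0.64), Icosl (13.3 and 8.89 CPM, 0.28) and Havcr2 (18.8 and 19.2 CPM, -0.50).

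With LPS for 4 h, 5 members rose (Cd40, Cd83, Icosl, Cd80 and Cd274) and 0 fell, against 2.39% and 0.829% of the 9406 genes tested, in 2 libraries a group. Of the 8, 7 passed the filter, Cd274 and Cd40 only through the LPS group. The small p-values here rest on a spread shared across genes. Cd83 went from 31.2 and 28.6 to 260.1 and 262 CPM (3.30 ± 0.126 (SE), adjusted p = 1.32e-146). Cd40 went from 5.05 and 2.34 to 99.9 and 107 CPM (4.96 ± 0.233 (SE), adjusted p = 2.71e-97). Cd80 went from 23.4 and 13.6 to 78.0 and 88.2 CPM (2.34 ± 0.173 (SE), adjusted p = 9.65e-40), and Icosl from 13.3 and 8.89 to 62.2 and 52.7 (2.54 ± 0.207 (SE), adjusted p = 7.25e-33). Cd274 went from 4.59 and 5.15 to 20.4 and 18.4 CPM (2.16 ± 0.331 (SE), adjusted p = 8.57e-10), which was still below all BMDM libraries. Tested against the cutoff itself, 2 members were called, and Cd274 was not among them (adjusted p = 1). Cd86 (1.02 ± 0.173 (SE), adjusted p = 3.91e-08) and Havcr2 (0.46 ± 0.23 (SE), adjusted p = 0.102) were not called. Pdcd1lg2 had 0 and 1 counts. Itgax also went up, from 0.932 ± 0.668 to 19.5 ± 2.60 CPM (SD, n = 2; 4.49 ± 0.473 (SE), adjusted p = 6.15e-20), with the dendritic markers at no more than 25.1 CPM in sum, and their part was not tested. Doses of LPS were the same as in the IFN-γ-primed BMDMs at 4 h, but RAW264.7 received no IFN-γ, and the difference between the cell types was not tested.

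Within libraries, Cd80 had 48.3 and 81.0 counts per 100 Cd86 counts in RAW264.7 control cells and 149 and 177 with LPS. In BMDMs with IFN-γ-primed LPS the ratio did not pass 36.2, but with few counts of both genes it ran from 31.6 to 200 with IL-4 and from 80 to 150 with IL-13, so the RAW264.7 values lay within the BMDM range.

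Other ligands and surface partners of the same families, 18 in all of which 13 were tested in the time course, moved with IFN-γ-primed LPS as follows. At 4 h 9 were higher and 2 lower (all genes 11.4% and 11.4%), and at 1 h 5 and 1 (all genes 5.04% and 2.08%). The counts were 7 and 3 at 12 h (all genes 8.87% and 8.42%) and 6 and 2 at 24 h (all genes 7.93% and 6.93%). Their median log2 fold change at 4 h was 3.10, against -0.08 over all genes tested. Tnfsf4, Tnfsf8 and Tnfsf9 averaged 0, 0.397 and 0.59 CPM in control and passed the filter on low counts only through stimulated groups. Cd276, called lower at each time, had all its libraries above the filter's level of 5.57 CPM only in control. These counts and the median are thus no support in themselves. Icam1, the adhesion ligand of LFA-1, went from 43.3 ± 3.09 CPM (SD, n = 3) in control to 3889 ± 268 at 4 h (7.01 ± 0.118 (SE), adjusted p = 5.5e-42). Tnfsf9, the ligand of 4-1BB, went from 3 counts in all control libraries to 764 ± 118 CPM at 1 h and was at 8.53 ± 2.57 at 12 h. The gene of VISTA (4632428N05Rik) fell, from 747 ± 39.0 to 104 ± 5.15 CPM (-2.32 ± 0.0973 (SE), adjusted p = 6.55e-26). With IL-4 0 of the 10 tested were called (all genes 2.22% higher and 1.64% lower), and with IL-13 1 was lower (all genes 2.38%), Cd200, the ligand of the inhibitory receptor CD200R (-1.06 ± 0.164 (SE), adjusted p = 1.18e-06). In RAW264.7 with LPS, Icam1 was the 1 called higher and the VISTA gene the 1 called lower, of 10 tested (all genes 2.39% and 0.829%).

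**Figure D5:**
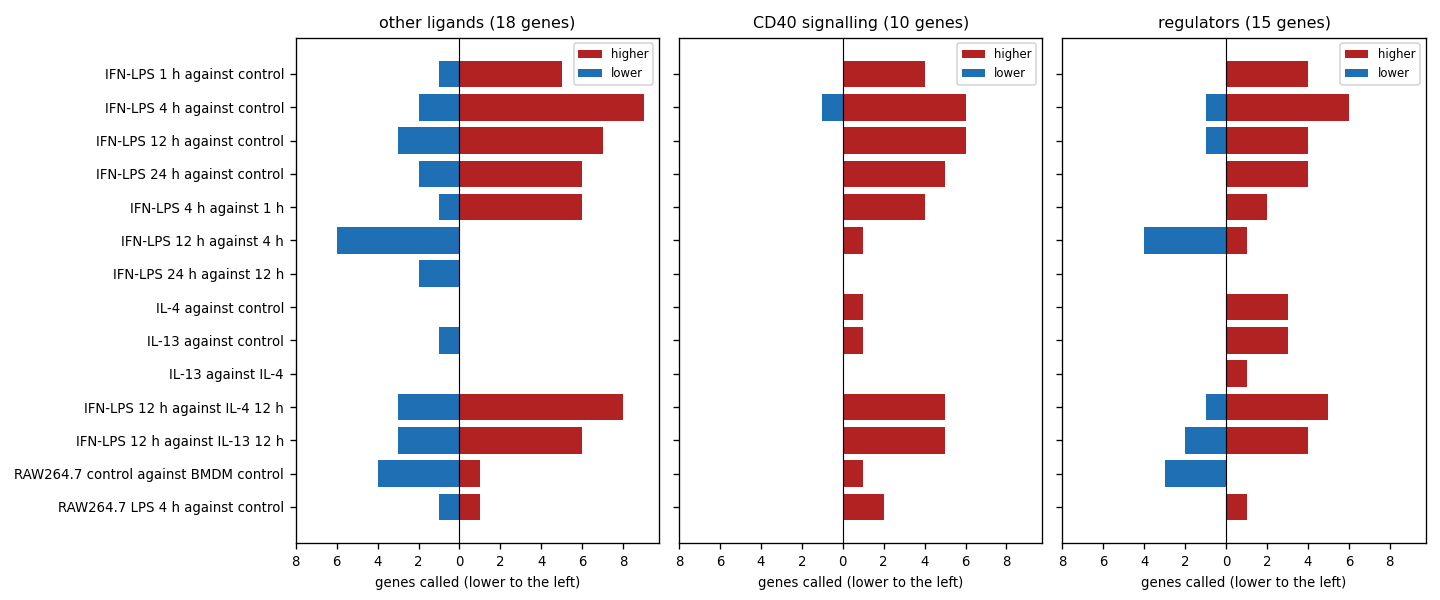
Number of genes called higher (right) or lower (left) in each comparison, for the other ligands (18 genes), CD40 signalling (10) and regulators (15). Against control, more genes of each list were called higher than lower at each time of IFN-γ-primed LPS. From 4 to 12 h 6 of 13 other ligands and 4 of 14 regulators tested were called lower (all genes 4.45%). With each cytokine 3 of 15 regulators were called higher (all genes 2.22% with IL-4 and 2.98% with IL-13). Some genes passed the filter only through stimulated or treated groups, so the counts are no support in themselves.

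Genes of CD40 signalling were all tested in the time course. At 4 h 6 of 10 were higher and 1 lower (Map3k14, the NF-κB-inducing kinase), against 11.4% and 11.4% of all genes, with a median log2 fold change of 2.32, against -0.08 over all genes tested. Traf1 went from 1.98 ± 1.51 CPM in control to 439.5 ± 50.9 at 4 h (8.27 ± 0.19 (SE), adjusted p = 1.19e-36) and Nfkb2 rose by 4.85 in log2 (adjusted p = 4.39e-35). Traf1 passed the filter on low counts only through stimulated groups, so its call adds no support to these counts. At 1 h 4 were higher (all genes 5.04%), at 12 h 6 (all genes 8.87%) and at 24 h 5 (all genes 7.93%), and 0 were lower. With IL-4 and with IL-13 1 of 9 tested was called higher (all genes 2.22% and 2.98%), Traf5 (1.52 and 1.86 in log2, adjusted p = 5.55e-05 and 2.34e-07). Its lowest control library was at 4.075 CPM, under the filter's level of 5.95. Only the treated groups lay wholly above that level, so this call is no support in itself. In RAW264.7 with LPS 2 of 10 were called higher, Traf1 and Nfkb2 (all genes 2.39%).

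Of 15 regulators, 14 were tested in the time course. Irf1, a transcription factor induced by IFN-γ, went from 48.5 ± 6.16 CPM in control to 1488 ± 73.5 at 1 h (5.13 ± 0.111 (SE), adjusted p = 2.55e-37). March1, whose product sends CD86 and MHC class II to degradation, was at 61.8 ± 0.666 CPM in control, 18.6 ± 4.22 at 4 h and 535 ± 124 at 12 h, the last called higher (3.43 ± 0.172 (SE), adjusted p = 1.1e-13). Irf4, a STAT6 target, was called with IL-4 (2.69 ± 0.475 (SE), adjusted p = 2.5e-05) and IL-13 (4.17 ± 0.373 (SE), adjusted p = 3.05e-13), and was at 9.27 ± 2.03 CPM with IL-4 and 26.8 ± 3.99 with IL-13. It was also the 1 regulator that differed between the 2 cytokines (1.49 ± 0.249 (SE), adjusted p = 0.000406). In all, 3 of 15 regulators were higher and 0 lower with each cytokine, against 2.22% and 1.64% of all genes with IL-4 and 2.98% and 2.38% with IL-13. Irf4 passed the filter on low counts only through the treated groups, so its calls add no support to these counts. At 4 h 6 of 14 were higher and 1 lower, against 11.4% and 11.4%.

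Over the 21 BMDM libraries, the gene whose log2 CPM was most like Cd40's was Cflar (Pearson r = 0.997), followed by Cxcl10 (r = 0.995), among 10612 genes. Psmb10 (0.986) and Ccl9 (0.981) were most like Cd274, and Tmem26 (0.932) and Arg1 (0.923) most like Pdcd1lg2. For Icosl these were Il18bp (0.990) and Ccl3 (0.989), for Cd86 Gbp4 (0.985) and Cxcl16 (0.984), and for Cd80 Ppp4r2 (0.971) and Cers6 (0.970). Tgm2 and Lilr4b (0.965 and 0.964) were most like Cd83, and Pqlc1 and Itgb5 (0.976 each) most like Havcr2. The points share groups, treatment and library preparation, and the correlations are a description.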

How the data were processed

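RNA-seq of 25 libraries in 9 groups was analysed, with groups taken from the labels. According to the study's methods and the submitters' processing notes, RNA was depleted of rRNA, strand-specific libraries were sequenced, reads were trimmed with Trimmomatic 0.33 and aligned to mm10 with STAR 2.5.1, and the authors deposited raw counts of reads per gene (unstranded and for each strand). The annotation release is not given in the sources used here. Sense-strand counts were used, without Rn45s. Depth was 1502618 to 2532496 counts, so genes with few counts had wide errors.

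Counts were tested in R 4.3.3 with edgeR 4.0.16 (filterByExpr with a minimum count of 10, TMM, robust quasi-likelihood test, Benjamini-Hochberg) in 4 fits: the time course (9568 genes), IL-4 and IL-13 (9252), RAW264.7 (9406) and all libraries (10612). The test was checked on simulated counts with large changes in genes that were not near the floor. This check does not cover genes with few counts or small changes. Alternatives were DESeq2 1.42.0, RLE size factors, unstranded counts, 2 other filters, Rn45s kept, a replicate block, the cutoff as the null hypothesis, only the 2 groups compared, and leaving out each library. The members and gene lists were chosen with earlier results of these data known. All members were named in every comparison. Of a list, up to 3 called genes with the largest change could be named, except Tnfsf4 and Tnfsf8, whose controls were at or near 0. These 2 are named only for how they passed the filter. Further genes named (Cd200, March1, the VISTA gene and Irf1 at 1 h among them) were chosen for their known roles. Likeness used log2 CPM (prior count 2). Exon lengths and positions came from GENCODE M21. The values of 1 regulator are not reported here.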

Additional observations from a re-analysis of the deposited data

Results flagged for a closer look

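Counts on the strand opposite to the genes were not used in the comparisons. For 2 members they lay above the control level. Cd274 had a mean of 29.3 antisense counts in the 12 h libraries of IFN-γ-primed LPS, from 14 to 42 a library, against at most 2 in control BMDMs. This was 0.636% of its sense counts, against 0.901% in control (4 antisense and 444 sense counts), so the share was not higher. Cd40 had a mean of 10.3 antisense counts at 4 h, from 8 to 12 a library, against 0 in every control, or 0.231% of its sense counts (control had 0 antisense and 10 sense counts). Cd83 had 22 and Cd86 15 antisense counts over all 25 libraries, with at most 1 and 0 in a control library. Over all genes without Rn45s, antisense counts made up 1.02% to 1.41% of both strands in each library. Whether these reads came from antisense transcription, including the annotated antisense gene that overlaps Cd274, was not tested.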

How the results depend on the processing

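Of the 60 calls of members, 44 held under every alternative in which the gene was tested, and 0 changed sign. Deviations of same-numbered libraries from their group means had mean correlations near 0 over all genes. These were 0.0215 in the time course (up to 0.176, and -0.0108 for other numbers), 0.00813 for IL-4 and IL-13, -0.00379 in RAW264.7 and 0.00164 over all. With 2 libraries a group, the RAW264.7 values for same and other numbers mirror each other by construction. These means cannot show whether the numbers pair libraries. The replicate block changed no count of called members (6 higher and 1 lower at 4 h, for example). Counts of called members changed by over 1.5 times as follows, where the cause was not tested unless stated. The filter of 10 counts in every library tests fewer members: counts became 0 lower at 4 h, 3 higher and 0 lower at 12 h, 3 and 1 at 24 h, 0 and 0 from 1 to 4 h, 1 lower from 4 to 12 h, 1 higher with IL-4, 1 and 0 with IL-13, 0 higher for IL-13 against IL-4, and 1 and 0 for 12 h against IL-4 and against IL-13. With the cutoff as the null hypothesis, a stricter test, 0 were lower at 4 h, 1 at 24 h, 0 from 1 to 4 h, 1 from 4 to 12 h, 1 from 12 to 24 h, 0 with IL-13 and 1 for 12 h against IL-4, while 0 were higher for IL-13 against IL-4 and 2 in RAW264.7. At 4 h 0 were lower with RLE size factors, DESeq2 or Rn45s kept, and with DESeq2 0 were lower with IL-13 and 0 higher for IL-13 against IL-4. With no filter beyond 1 count, 1 was higher from 4 to 12 h (Pdcd1lg2). Leaving out 1 library moved the count lower at 4 h, from 1 to 4 h and with IL-13, and the count higher for IL-13 against IL-4, between 0 and 1. Smaller changes were 4 higher in place of 5 at 12 h, at 24 h and at 12 h against IL-13 with the cutoff as the null hypothesis (Cd80 in each), 4 in place of 5 at 24 h without control replicate 1 (Cd80), 3 in place of 2 from 1 to 4 h without 1 h or 4 h replicate 3 (Cd274), 2 lower in place of 3 from 4 to 12 h with only these groups, and, with the filter of 10 counts, 4 higher in place of 5 at 1 h and in RAW264.7, 4 in place of 6 at 4 h and 2 lower in place of 3 from 12 to 24 h. Values that changed sign were all uncalled: Cd86 from 4 to 12 h (-0.008 with unstranded counts, -0.012 with RLE, -0.011 with DESeq2, and -0.1 to 0.112 without 1 library, with -0.028 and -0.053 between), Icosl for IL-13 against IL-4 (-0.638 to 0.156), Cd86 with IL-4 (-0.611 to 0.133), Icosl in RAW264.7 against BMDM controls (-0.02 to 0.521), and Havcr2 at 1 h (down to -0.019), from 12 to 24 h (-0.642 to 0.432), with IL-4 (-0.065 to 0.283) and for IL-13 against IL-4 (-0.012 to 0.349), each without 1 library.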

Other observations

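The receptor that Cd80 and Cd86 bind on T cells was itself counted in the control macrophages. Cd28 was at 189.8 ± 4.23 CPM (SD, n = 3) in control BMDMs, at 33.4 ± 4.09 at 1 h of IFN-γ-primed LPS, at 3.29 ± 2.06 at 4 h and at 1.78 ± 0.561 at 24 h, and the log2 fold change was -2.31 ± 0.134 (SE), adjusted p = 5.93e-20 at 1 h and -6.48 ± 0.217 (SE), adjusted p = 1.05e-29 at 24 h. With IL-4 (161 ± 8.58 CPM) and IL-13 (161 ± 28.9 CPM) it was not called (-0.24 ± 0.105 (SE), adjusted p = 0.128 for IL-4). Cd3e, Cd3d, Cd3g and Cd40lg held 0 counts in all 25 libraries, Ctla4 2 and Pdcd1 12, so that Cd28 was nearly all of the T cell list in control BMDMs. The list of 9 genes summed to 187 to 196 CPM in control BMDMs and to 1.58 to 2.76 CPM at 24 h. RAW264.7 control cells held 7.87 ± 1.86 CPM of Cd28 (n = 2) and those with LPS held 0. Cd28 was named after its values were seen.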
